A study of Mus musculus with 8 samples.

Results

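The comparison described here is the colon of mice colonized with the yeast Candida tropicalis against the colon of uncolonized control mice, across all genes of a table of RNA sequencing read counts. It rests on 5 of the 8 libraries of the study: 2 from the C. tropicalis group and 3 controls. The other 3 libraries, from mice given Candida albicans, share the same controls. They entered the fit to estimate the spread between libraries, and their values are set beside those of C. tropicalis. All animals were wild-type C57BL/6 females, 6 weeks old, kept germ-free in gnotobiotic isolators apart from the yeast given. The yeasts were C. tropicalis strain MYA-3404 and C. albicans strain SC5314, given by oral gavage, and colon RNA was taken 30 days later. Whether the libraries come from different mice, which stretch of the colon was taken and at what hour are not in the labels. The p-values therefore reflect only how far these libraries differ among themselves, and that spread may be technical. Libraries are numbered only to name them.

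C. tropicalis and C. albicans are related yeasts that live in the mammalian gut. In a germ-free mouse the yeast is the only microbe introduced, and the host senses fungal cell wall glucans and mannans through C-type lectin receptors such as dectin-1, which signal through Card9 and can drive type 17 cytokines, antimicrobial peptides and oxidases in the epithelium. The colon also carries a circadian clock, a loop in which Arntl and Clock switch on the Per and Cry genes, whose proteins then hold Arntl and Clock back. Heat shock proteins and the chaperones of the endoplasmic reticulum fold new proteins, and their genes are switched on together under protein stress and also vary over the day.

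The 8 libraries held 16195376 to 19761098 counts, and a floor of 3 counts equals 0.157 to 0.183 CPM, the count scaled to the library's TMM-adjusted total. Of 52636 genes in the table, 16107 passed the filter on low counts and were tested. The libraries also differed in ways that follow the groups only in part. The mitochondrial rRNA genes summed to 52.7 to 69.9 CPM in 3 libraries (control 1, C. albicans 1 and C. albicans 3) and to 1464 to 2323 CPM in the other 5. With the libraries split at this gap, 21 genes differed between the sides at an adjusted p under 0.05 (edgeR). The mitochondrial rRNA genes mt-Rnr1 and mt-Rnr2 are among the 21, and their difference was set by construction, since the split was drawn from their values. The labels name nothing that matches this split. The 5 libraries with high values, called rRNA-rich below, include both C. tropicalis libraries and controls 2 and 3. Control 3 also lay with C. tropicalis rather than with the other controls in posterior Hox genes, which mark position along the gut, as described further on. Some results that touch these libraries are therefore also given without them. Fold changes are over all libraries unless another fit is named.

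Motifs known for the clock and for heat shock were searched in promoters of genes the results turn on. Per2 and Hspa8 had no promoter window and were not searched. Printed are 4 promoters: Rbm14, because it passed the test, and Hsph1, Ciart and Per3, chosen after their values were seen. The latter show the heat shock element, the E-box bound by Arntl and Clock and the D-box bound by factors of the Dbp and Tef kind. Each sequence is the 250 bases before the RefSeq start (GRCm38.p6), read 5′ to 3′ on the strand of the gene, with the motif in capitals. The window of Rbm14 is chr19:4811635-4811884, that of Hsph1 chr5:149636337-149636586, that of Ciart chr3:95882229-95882478 and that of Per3 chr4:151044666-151044915, all on the minus strand.
Rbm14: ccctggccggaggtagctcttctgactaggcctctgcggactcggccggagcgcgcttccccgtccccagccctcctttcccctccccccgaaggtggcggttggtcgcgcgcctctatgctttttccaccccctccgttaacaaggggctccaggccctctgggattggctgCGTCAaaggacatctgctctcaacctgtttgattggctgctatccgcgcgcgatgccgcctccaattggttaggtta
Hsph1: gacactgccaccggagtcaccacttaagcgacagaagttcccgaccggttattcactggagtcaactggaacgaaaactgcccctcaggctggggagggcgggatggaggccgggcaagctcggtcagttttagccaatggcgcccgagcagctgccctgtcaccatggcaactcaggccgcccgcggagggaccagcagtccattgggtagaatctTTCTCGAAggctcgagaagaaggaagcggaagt
Ciart: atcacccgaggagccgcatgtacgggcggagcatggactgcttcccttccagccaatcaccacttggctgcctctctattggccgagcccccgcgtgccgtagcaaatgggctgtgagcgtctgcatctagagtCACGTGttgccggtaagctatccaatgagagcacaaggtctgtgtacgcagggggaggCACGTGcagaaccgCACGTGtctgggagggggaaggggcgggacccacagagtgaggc
Per3: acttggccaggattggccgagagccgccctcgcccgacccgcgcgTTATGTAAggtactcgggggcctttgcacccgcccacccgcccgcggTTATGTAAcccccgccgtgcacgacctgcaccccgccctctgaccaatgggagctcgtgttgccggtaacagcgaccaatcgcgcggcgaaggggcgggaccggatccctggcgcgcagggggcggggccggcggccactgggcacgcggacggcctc
The capitals mark the short CRE motif CGTCA, bound by factors of the Creb kind, 77 bases before the start of Rbm14, a heat shock element of the form TTCNNGAA 33 bases before that of Hsph1, E-boxes (CACGTG) 116, 58 and 44 bases before that of Ciart and D-boxes (TTATGTAA) 205 and 158 bases before that of Per3. Hsph1 held 2 more heat shock elements and an E-box in the 50 bases after its start. Windows of 300 bases, from 250 before to 50 after the start, were searched on both strands. Over all 32851 such windows, 7.15% held an E-box, 3.38% a D-box, 15.1% a heat shock element (GAANNTTC or TTCNNGAA), and 20.8% the short CRE motif. The windows of Fmo2 held no motif searched, and 1 of 3 windows of Dhrs3 held a heat shock element after the start. Among the gene lists used below, counting the first window of each gene, a heat shock element stood in 14 of 42 chaperone genes with a window (33.3%) beside 15.1% of all 27025 genes, an E-box in 5 of 20 clock genes (25%) beside 7.24%, and a D-box in 3 of 20 (15%) beside 3.52%. A match is a description of letters, not a site in use.

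In the colonized colon, 5 genes changed at an adjusted p under 0.05 by edgeR's quasi-likelihood test with Benjamini-Hochberg adjustment, 0.0310% of the genes tested. The clock repressor Per2, the chaperone Hspa8, the RNA-binding protein Rbm14 and the flavin monooxygenase Fmo2 rose, and Dhrs3, a reductase that returns retinaldehyde to retinol, fell.

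Per2 (ENSMUSG00000055866, chr1:91415982-91459324, minus strand, GRCm38) stood at 35.1, 40.4 and 30.0 CPM in controls 1 to 3 and at 259 and 167 CPM in C. tropicalis 1 and 2. Both colonized libraries lay far above every control. The log2 fold change was 2.60 ± 0.22 (SE), a 6.06-fold rise (edgeR adjusted p = 0.0134). Per2 is a core repressor of the clock.

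Hspa8 (ENSMUSG00000015656, chr9:40800984-40810087, plus strand), the constitutive cytosolic HSP70 that folds new proteins and uncoats clathrin vesicles, was the most abundant of the 5. It stood at 783, 1039 and 949 CPM in the controls and at 3507 and 2911 CPM in the colonized libraries, which again did not overlap. The rise was 3.47-fold (log2 1.80 ± 0.21, edgeR adjusted p = 0.0409).

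Fmo2 (ENSMUSG00000040170, chr1:162874317-162898726, minus strand), an enzyme that oxidizes nitrogen and sulfur in drugs and other small molecules, was measured at 18.2, 21.3 and 26.1 CPM in the controls and at 60.8 and 80.5 CPM with C. tropicalis. Both colonized libraries stood well above the highest control. The rise was 3.23-fold (log2 1.69 ± 0.18, edgeR adjusted p = 0.0389). Rbm14 (ENSMUSG00000006456, chr19:4800569-4811634, minus strand), a coactivator and a protein of the nuclear bodies called paraspeckles, gave 18.6, 20.6 and 18.5 CPM in the controls and 53.0 and 49.0 CPM with C. tropicalis, so replicates were tight within both groups. It rose 2.65-fold (log2 1.41 ± 0.15, edgeR adjusted p = 0.0372). Dhrs3 (ENSMUSG00000066026, chr4:144892827-144928209, plus strand) gave 52.9, 49.3 and 49.0 CPM in the controls and 22.8 and 20.5 CPM with C. tropicalis. Its log2 fold change was -1.22 ± 0.14 (edgeR adjusted p = 0.0409), and the groups stood apart by more than the spread within either.

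**Figure D1:**
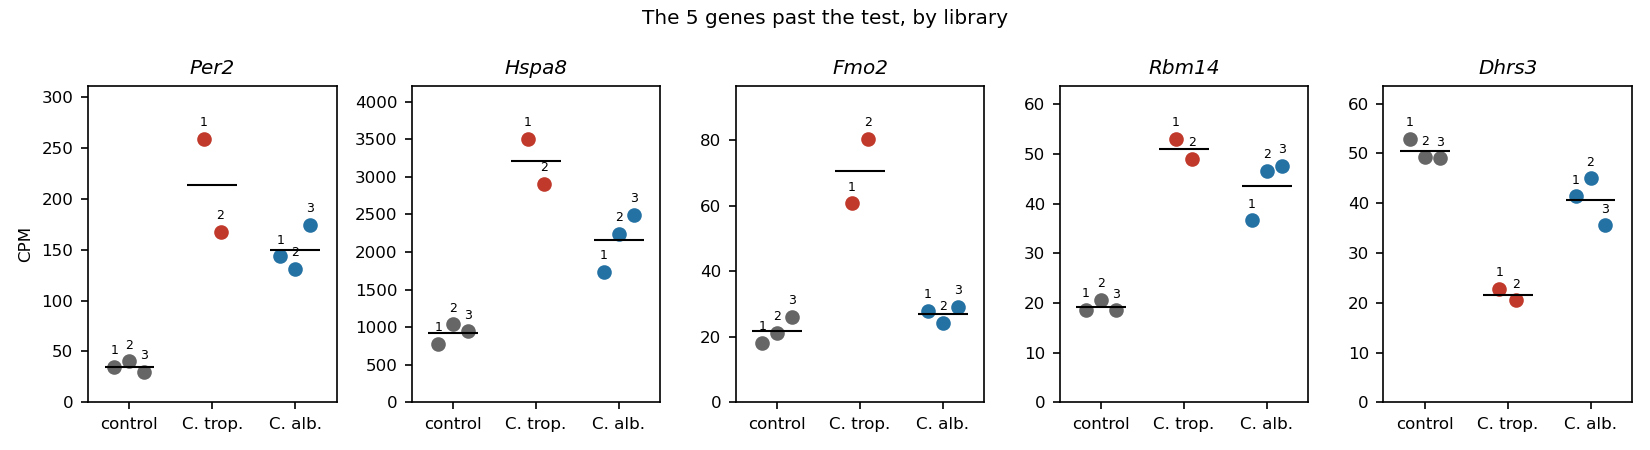
CPM of the 5 genes past the threshold in every library (vertical axis, linear from 0), by group; points are libraries and bars group means. Per2, Rbm14, Fmo2 and Hspa8 are higher and Dhrs3 lower in both C. tropicalis libraries than in all 3 controls, and the C. albicans libraries lie between the groups for Rbm14 and Hspa8 and near the controls for Fmo2. Numbers beside points name the library.

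How many genes pass rests on single libraries, while these 5 changes kept their direction over the fits that leave out 1 library each. There the log2 fold change of Per2 ran from 2.25 to 2.88, that of Hspa8 from 1.66 to 1.93 and that of Fmo2 from 1.48 to 1.88. That of Rbm14 ran from 1.35 to 1.47 and that of Dhrs3 from -1.29 to -1.14. The 5 were picked for a small p in these same libraries, so narrow ranges were partly set by that choice. No gene passed without control 1, control 2 or C. tropicalis 1, 1 passed without C. tropicalis 2, C. albicans 2 or C. albicans 3, and 192 passed without control 3, the 5 among them. Within the 5 rRNA-rich libraries 63 genes passed, again with the 5 among them, whereas with the rRNA split as a term none did (Per2 adjusted p = 0.070, edgeR). DESeq2 called 179 genes above control (1.26% of the genes to which it gave an adjusted p) and 217 below (1.53%), all 5 included.

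The same 5 genes in the C. albicans libraries, which share the controls, stood at other levels. Per2 gave 143, 131 and 174 CPM there, Hspa8 1736, 2240 and 2496 CPM and Rbm14 36.6, 46.6 and 47.6 CPM. These lie above all controls and below both C. tropicalis libraries, except that 1 value of Per2 is above the lower of the colonized libraries. Fmo2, at 27.9, 24.3 and 29.1 CPM, and Dhrs3, at 41.4, 45.0 and 35.6 CPM, lay nearer to the controls. The difference between the 2 yeasts was tested in the same fit. It was 1.38 ± 0.18 on the log2 scale for Fmo2 and -0.91 ± 0.14 for Dhrs3 (edgeR adjusted p = 0.0646 for both), and 0.51 ± 0.22 for Per2 (adjusted p = 0.197). No gene passed at 0.05 in that comparison by edgeR, 3744 had an unadjusted p under 0.05, and DESeq2 called 1739.

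Next in rank were genes that did not pass at 0.05 by edgeR, given here as values. Hif1a, the oxygen-sensing transcription factor, stood at 35.7, 41.3 and 40.1 CPM in controls and at 76.2 and 76.7 CPM with C. tropicalis (log2 0.97 ± 0.12, edgeR adjusted p = 0.0645). The colonized libraries were almost equal, and the fold was 1.96. Anxa8, a calcium-dependent membrane-binding annexin, gave 30.3, 23.1 and 28.8 against 70.2 and 62.2 CPM (log2 1.27 ± 0.18, edgeR adjusted p = 0.0862). In the C. albicans libraries Anxa8 was at 22.9, 29.4 and 32.1 CPM, near the controls. Thra, a thyroid hormone receptor, gave 115, 127 and 134 against 59.6 and 66.5 CPM (log2 -0.99 ± 0.14, edgeR adjusted p = 0.0862). Thra overlaps the clock gene Nr1d1 on the opposite strand, and the library kit does not mark strand, so reads of the pair cannot be told apart where they overlap. Utp14b, which shares its strand and locus with the more abundant Acsl3, was at log2 1.60 ± 0.23.

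Further genes above control, none past the threshold, were Slc5a3, a myo-inositol transporter (29.8, 36.3 and 28.2 against 64.7 and 61.2 CPM), Coq10b, a coenzyme Q-binding protein of mitochondria (log2 1.14 ± 0.17), Chordc1, a partner of HSP90 (1.10 ± 0.16), and Rangap1, the GTPase activator of nuclear transport (0.85 ± 0.13). Slc5a3 shares its locus with Mrps6 and Rangap1 overlaps Zc3h7b on the other strand. On the lower side were Lpin1, a phosphatidate phosphatase of fat synthesis (-1.32 ± 0.22), Sox6 (-1.60 ± 0.27), a transcription factor, Ypel2 (-1.47 ± 0.25), Bmf, which promotes cell death (-0.92 ± 0.16), Hao2, a peroxisomal hydroxyacid oxidase (-1.12 ± 0.20), Klhl24 (-1.27 ± 0.23), Abtb1 (-0.90 ± 0.16), the potassium channel subunit Kcng4 (-1.99 ± 0.36) and Msn, which ties membrane to actin (-1.06 ± 0.20). These genes were named among those whose 2 colonized libraries lay outside the range of the 3 controls, a condition met by 16.0% of all genes tested on the higher side and 16.5% on the lower side, so their separation is no finding.

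Clock genes were then described as a group. The list of 24 was tested whole: 14 were above control, and at an unadjusted p under 0.05 there were 12 above and 3 below, where over all genes tested 7.33% were above and 8.05% below by that measure (edgeR). Per2 is the one member past the adjusted threshold. The median log2 fold change was 0.38, against -0.02 over all genes. It was 0.47 within the rRNA-rich libraries, 0.32 without control 3, 0.29 without C. tropicalis 1 and 0.59 without C. tropicalis 2.

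The repressors made up most of the higher side, with 7 of 8 above control at an unadjusted p under 0.05. Per3 stood at 18.7, 15.0 and 19.1 CPM in controls and at 50.1 and 34.2 CPM with C. tropicalis (log2 1.26 ± 0.20, edgeR adjusted p = 0.104). Per1 stood at 90.6, 88.2 and 96.5 against 181 and 139 CPM (log2 0.80 ± 0.15). In both genes, as in Per2, C. tropicalis 1 was the higher of the colonized libraries. Per3 shares its strand and locus with Camta1. Ciart, a repressor that binds Arntl and Clock, gave 5.83, 6.25 and 2.90 against 13.0 and 12.1 CPM (log2 1.33 ± 0.28). Cry1 was at log2 1.03 ± 0.24, Cry2 at 0.55 ± 0.16 and Bhlhe40 at 0.73 ± 0.15.

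Of the 4 activators, 2 were below control at an unadjusted p under 0.05. Arntl stood at 40.9, 37.4 and 48.2 CPM in controls and at 23.5 and 21.3 CPM with C. tropicalis (log2 -0.91 ± 0.15, edgeR adjusted p = 0.112). Npas2, a relative of Clock, gave 35.9, 40.0 and 57.5 against 26.4 and 18.6 CPM (log2 -0.98 ± 0.23). Both colonized libraries were below all controls in Arntl and Npas2, as for 16.5% of all genes tested. Arntl was named by a rule that asks for this separation and Npas2 after its values were seen, so the separation is no finding. Clock itself was at log2 0.22 ± 0.15.

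Among the nuclear receptors of the loop, Nr1d1, the repressor REV-ERBα, gave 116, 147 and 161 against 91.9 and 49.1 CPM (edgeR adjusted p = 0.223), and Nr1d2 was at 0.50 ± 0.21. Among outputs, Usp2, a deubiquitinase, gave 23.0, 31.4 and 14.6 against 64.5 and 65.9 CPM, Tef stood at log2 1.14 ± 0.21 and Wee1, a kinase that holds back mitosis, at 1.21 ± 0.22.

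Dbp, the output that usually swings widest over the day, separated the groups differently. It stood at 40.8, 61.0 and 24.6 CPM in controls and at 48.7 and 29.5 CPM with C. tropicalis, so these groups overlapped (log2 -0.11 ± 0.34). In the C. albicans libraries it stood at 178, 168 and 161 CPM. The difference between the yeasts was -2.11 ± 0.36 on the log2 scale (edgeR adjusted p = 0.0646). Dbp overlaps Sphk2 on the other strand. The hour of collection is not in the labels, and its part in the clock values was not tested.

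Most chaperone genes stood above control. Of 51 heat shock genes, all tested, 41 were above control, with 22 above and 3 below at an unadjusted p under 0.05 (edgeR) and Hspa8 alone past the adjusted threshold. The median log2 fold change was 0.32, it was 0.34 within the rRNA-rich libraries and 0.18 without C. tropicalis 2. The HSP70 and HSP110 genes had the highest median, 1.45, with 6 of 8 above at an unadjusted p under 0.05. Hsph1, the HSP110 that recharges HSP70, stood at 37.6, 32.9 and 27.5 CPM in controls and at 186 and 113 CPM with C. tropicalis (log2 2.20 ± 0.29, edgeR adjusted p = 0.0829). Hspa4l, another HSP110, gave 22.7, 18.3 and 26.6 against 73.9 and 49.1 CPM (log2 1.45 ± 0.23, edgeR adjusted p = 0.108). The colonized libraries lay apart from the controls in both, with C. tropicalis 1 the higher.

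The stress-inducible pair Hspa1a and Hspa1b behaved less evenly. Hspa1a gave 23.9, 25.4 and 28.6 CPM in controls and 113 and 31.2 CPM in C. tropicalis 1 and 2, and Hspa1b gave 75.2, 87.1 and 65.3 against 325 and 90.7 CPM. C. tropicalis 2 lay close to the controls, so the fold rests on the other library: without C. tropicalis 1 the log2 fold change of Hspa1a was 0.27, the lowest of the fits leaving out 1 library, and with all libraries it was 1.47 ± 0.47. These genes are near-identical copies, and reads may be split between them. In the C. albicans libraries Hspa1a stood at 254, 377 and 168 CPM, above both C. tropicalis libraries.

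HSP90 and its partners had a median of 0.91, with 8 of 12 above at an unadjusted p under 0.05. Hsp90ab1, the constitutive cytosolic HSP90, was at log2 0.89 ± 0.18, its partners Stip1 at 1.08 ± 0.19 and Fkbp4 at 0.92 ± 0.18, and the HSP40 Dnaja1 at 1.26 ± 0.23. Hsp90aa1, the inducible HSP90, is one of the 21 genes that follow the rRNA split. It stood at 7.94, 177 and 154 CPM in controls and at 501 and 413 CPM with C. tropicalis, and the outlying 7.94 CPM is control 1. Its log2 fold change was 2.02 ± 1.42 over all libraries and 1.48 ± 0.22 within the rRNA-rich ones (edgeR adjusted p = 0.0304). All 10 chaperonins, which fold actin and tubulin or mitochondrial proteins, were above control, by at most 0.37 on the log2 scale. Small heat shock proteins went the other way: Hspb1, which is abundant in muscle, gave 289, 465 and 210 against 116 and 118 CPM (log2 -1.46 ± 0.34).

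**Figure D2:**
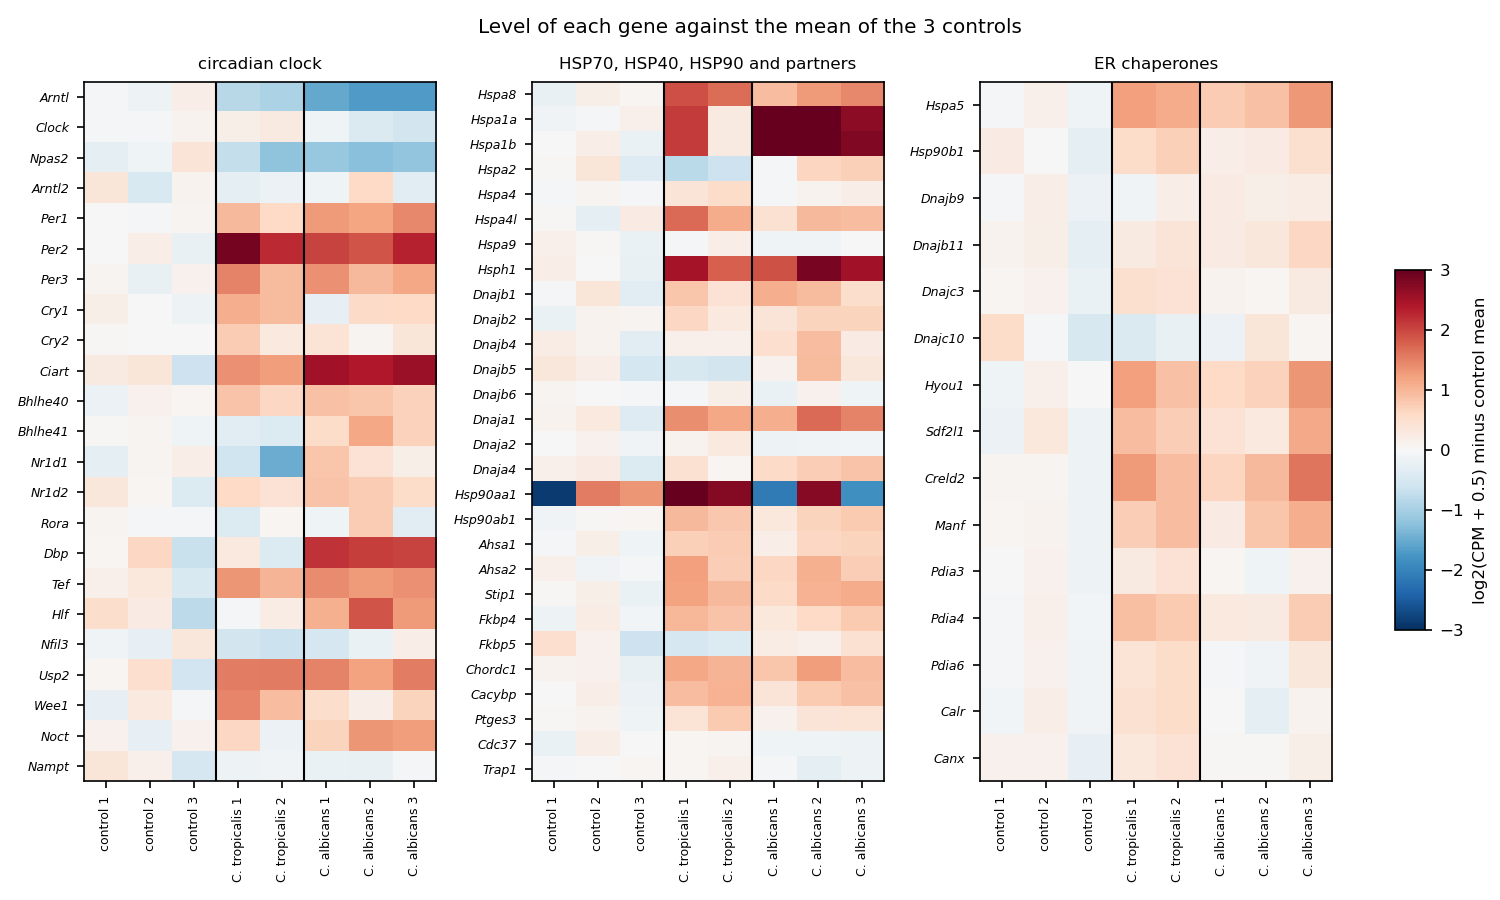
Level of clock genes, cytosolic chaperones and chaperones of the endoplasmic reticulum (1 gene per line) in each of the 8 libraries (horizontal axis), as log2(CPM + 0.5) minus the mean of the 3 controls, red above and blue below, with the colour scale ending at 3 on either side. Per1, Per3, Hsph1 and Hspa5 are red and Arntl blue in both C. tropicalis libraries, while Dbp is red in all 3 C. albicans libraries and pale in both C. tropicalis ones.

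Genes of the endoplasmic reticulum stress response were measured from 29 members, all tested, of which 25 were above control. At an unadjusted p under 0.05, 13 were above and 0 below by edgeR, and none passed the adjusted threshold by edgeR, while DESeq2 called 6. Lumenal chaperones accounted for 12 of the 13. Hspa5, the main HSP70 of this compartment (BiP), stood at 269, 311 and 256 CPM in controls and at 651 and 605 CPM with C. tropicalis (log2 1.17 ± 0.19, edgeR adjusted p = 0.104). The groups lay well apart, and its C. albicans values were 473, 514 and 690 CPM. Hyou1, its exchange factor, was at log2 1.06 ± 0.22, Creld2 at 1.12 ± 0.26 and the disulfide isomerase Pdia4 at 0.84 ± 0.17. Sensors and transcription factors had a median of 0.18, with Xbp1 at 0.50 ± 0.16 the single member at an unadjusted p under 0.05.

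RNA-binding proteins that respond to cold or sit in paraspeckles were not shifted as a group. Of 18 tested, 2 were above and 2 below at an unadjusted p under 0.05, and the median was -0.01. Beside Rbm14, Sfpq, a core paraspeckle protein, gave 123, 124 and 161 CPM in controls and 255 and 221 CPM with C. tropicalis (log2 0.81 ± 0.16). Cirbp, the cold-inducible protein, gave 94.1, 70.5 and 108 against 34.9 and 47.9 CPM (log2 -1.14 ± 0.22). Neither passed at 0.05 by edgeR.

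Of 7 flavin monooxygenase genes 4 were tested, and Fmo2 is the one past the threshold. Fmo1 gave 3.26, 4.35 and 7.48 CPM in controls and 9.65 and 10.8 CPM with C. tropicalis (log2 1.02 ± 0.35). Fmo5, at log2 0.26 ± 0.29, and Fmo4, at 0.02 ± 0.52, overlapped between the groups. Among 32 tested genes of xenobiotic metabolism, 1 was above and 6 below at an unadjusted p under 0.05. Gsta3, a glutathione transferase, stood at 5.48, 8.28 and 6.08 against 17.2 and 18.4 CPM (log2 1.43 ± 0.27). Lower were the cytochromes Cyp3a13 (log2 -0.85 ± 0.22) and Cyp2c55 (-1.80 ± 0.54) and the carboxylesterase Ces2e, which gave 297, 296 and 83.6 against 63.3 and 74.3 CPM, with control 3 close to the colonized libraries.

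Retinoid genes, which take up, store, oxidize and respond to vitamin A, leaned below control: of 38 tested, 25 were below and the median was -0.26, with 1 above and 7 below at an unadjusted p under 0.05. The median was -0.13 without C. tropicalis 1 and -0.14 without control 2. Dhrs3 is the one past the adjusted threshold. Lrat, which stores retinol as esters, gave 14.5, 6.14 and 1.61 CPM in controls and 0.857 and 0.963 CPM with C. tropicalis, a spread among controls wider than their distance from the colonized libraries (log2 -3.01 ± 0.87). Isx, a homeobox gene that retinoic acid switches on in the intestine, gave 43.0, 12.6 and 0.538 against 0.400 and 0.850 CPM, so control 3 lay within the colonized range. Bco2, which cleaves carotenoids, was at log2 -1.26 ± 0.42 and Rdh10, which makes retinaldehyde, at 0.47 ± 0.15. Bco2 overlaps Il18 on the other strand.

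Posterior Hox genes set control 3 apart from the other controls. Hox genes of the posterior clusters mark the hindgut, and the score over them, in which higher means more posterior, was -1.08, -0.14 and 0.93 in controls 1 to 3 and 1.24 and 0.94 with C. tropicalis. The C. albicans libraries scored -0.26, -1.55 and -0.06. Hoxd13 gave 5.94, 17 and 188 CPM in controls and 300 and 220 CPM with C. tropicalis, and Hoxb13 gave 221, 675 and 862 against 1035 and 960 CPM. Not all posterior members stood higher: Hoxa11 gave 8.80, 5.66 and 3.82 against 3.31 and 4.53 CPM (log2 -0.63 ± 0.54), and Hoxa10 (-0.08 ± 0.18) and Hoxa13 (0.003 ± 0.14) lay close to 0. In all 8 posterior Hox genes tested control 3 was nearer, on the log2 scale, to the C. tropicalis mean than to that of the other controls, as it was in 8332 of all 16107 genes. None of the 8 had an unadjusted p under 0.05. Of 18 tested Hox genes numbered below 10, control 3 was nearer to C. tropicalis in 6. Their median log2 fold change was -0.53, with 0 above and 3 below at an unadjusted p under 0.05 (edgeR).

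Several epithelial genes had control 3 on the side of C. tropicalis, and Scnn1g and Car1 among them were picked after their values were seen. Slc9a3, the sodium-proton exchanger that takes up salt, stood at 1117, 284 and 13.6 CPM in controls and at 12.5 and 10.2 CPM with C. tropicalis (log2 -5.38 ± 1.47, edgeR adjusted p = 0.206). Cdx2, the homeobox factor of intestinal identity, gave 339, 192 and 26.9 against 26.3 and 28.6 CPM, and the hormone gene Guca2a gave 2730, 1746 and 190 against 189 and 226 CPM. In these 3 genes control 3 could not be told from the colonized libraries. On the higher side, Scnn1g, a subunit of the epithelial sodium channel, gave 12.4, 32.9 and 83.6 against 211 and 140 CPM, and Car1, a carbonic anhydrase abundant in colonocytes, gave 243, 388 and 1602 against 2231 and 2255 CPM. Of 41 colonocyte genes tested, 6 were above and 9 below at an unadjusted p under 0.05, and in 30 control 3 lay nearer to C. tropicalis. With the Hox score as a covariate no gene passed by edgeR, and Per2 kept a log2 fold change of 2.53 ± 0.29 (adjusted p = 0.0676).

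**Figure D3:**
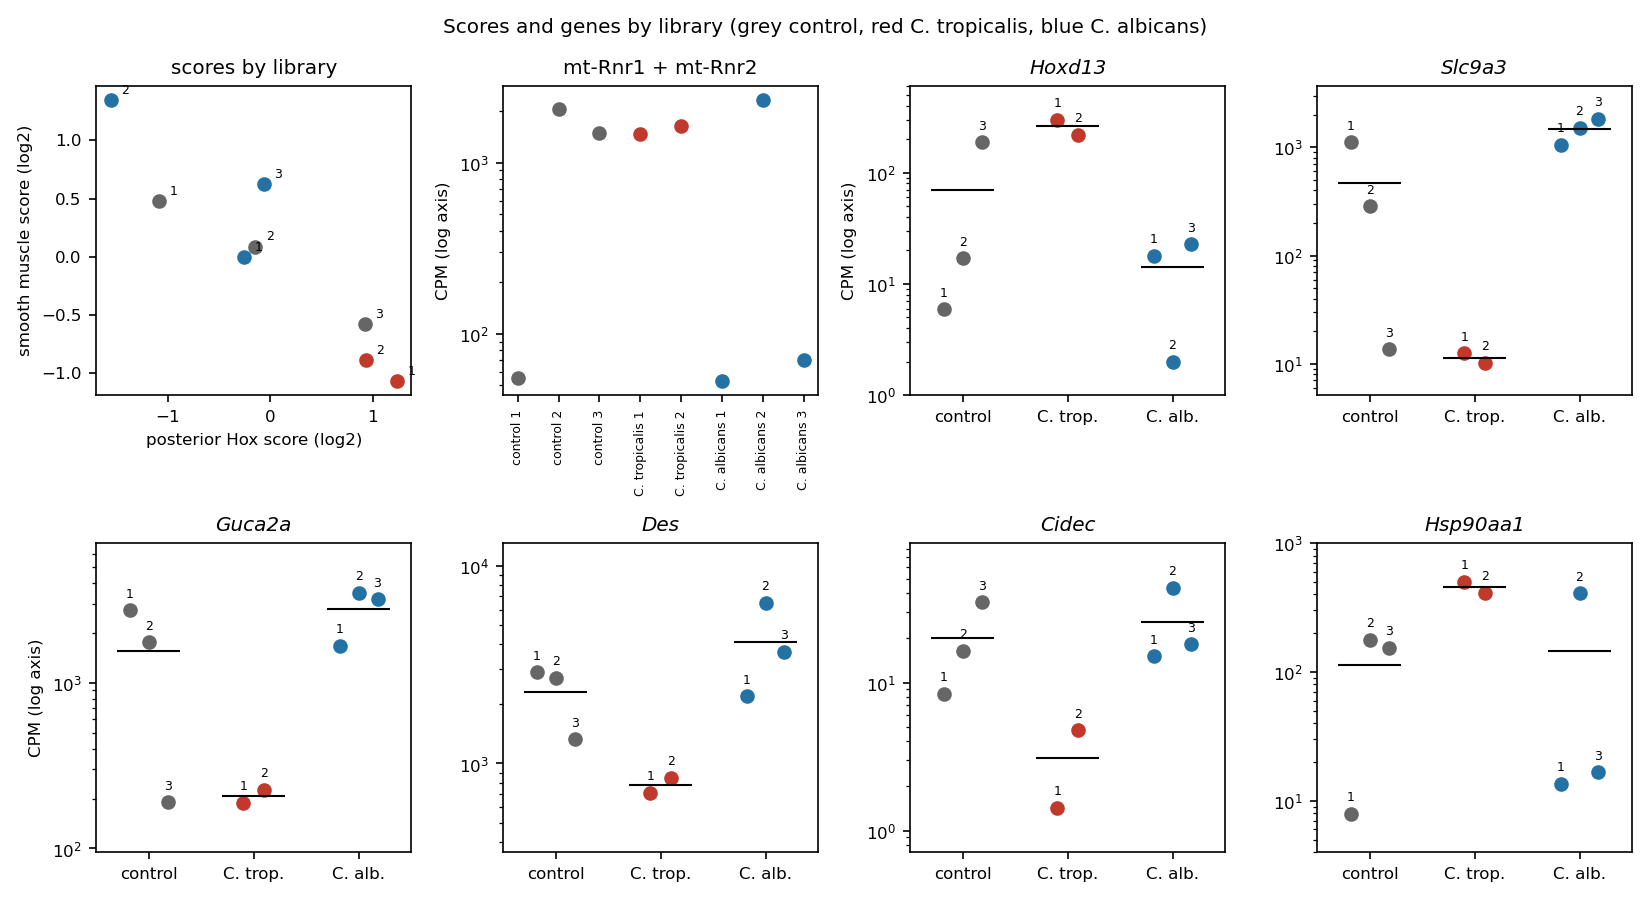
The smooth muscle score against the posterior Hox score (log2, linear axes), the summed CPM of the mitochondrial rRNA genes and the CPM of 6 genes (log axes) in each library, with controls grey, C. tropicalis red and C. albicans blue, library numbers beside the points and bars at group means. Control 3 lies with both C. tropicalis libraries in the posterior Hox score and in Slc9a3, while the mitochondrial rRNA genes split 3 libraries from the other 5.

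Genes of the muscle wall and its nerves lay below control with C. tropicalis. In bulk tissue fewer cells of a type and less RNA per cell cannot be told apart. All 24 smooth muscle genes tested were below control, 13 at an unadjusted p under 0.05 and none past the adjusted threshold by edgeR, with 4 called by DESeq2. Their summed level was 20248, 16442 and 11000 CPM in controls, 6484 and 8408 CPM with C. tropicalis and 14940 to 41112 CPM with C. albicans. Des, the intermediate filament of muscle, gave 2893, 2718 and 1325 against 710 and 848 CPM (log2 -1.57 ± 0.47), with control 3 between the groups. Cnn1, a muscle calponin, was at log2 -1.65 ± 0.48, Synpo2 at -2.21 ± 0.67 and the channel subunit Kcnmb1 at -1.20 ± 0.30. The median of the list was -0.96, and -0.72 within the rRNA-rich libraries. The muscle score is the mean log2 level of these 24 genes in each library. With the muscle score as a covariate no gene passed by edgeR, and the log2 fold change of Per2 was 2.59 ± 0.31 (adjusted p = 0.0527).

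Enteric neurons and glia showed the same side: of 25 genes tested 24 were below control, 10 at an unadjusted p under 0.05, and the median was -0.84. The receptor gene Ret was at log2 -0.88 ± 0.28, Gfra1 at -1.25 ± 0.46 and Erbb3 at -0.83 ± 0.27. Of 10 interstitial pacemaker genes tested, 9 were below control, 6 at an unadjusted p under 0.05, and the median was -1.02. The remaining gene lay above control without overlap. The summed level of the list was 672, 926 and 913 CPM in controls and 1132 and 1047 CPM with C. tropicalis. In 8 of the 10 genes control 3 lay nearer to C. tropicalis. Kit gave 98.6, 56.9 and 40.1 against 24.6 and 28.6 CPM (log2 -1.29 ± 0.36), and Prkcq was at -2.67 ± 0.59. Fibroblast genes had a median of -0.26, and of -0.47 without C. tropicalis 1, with 7 of 26 below at an unadjusted p under 0.05, among them the matrix gene Fbn1 at -1.14 ± 0.22. Endothelial genes had a median of -0.27 with 5 of 18 below, Kdr among them at -0.67 ± 0.18. With the muscle score as a covariate the medians were 0.01 for the muscle list itself, -0.15 for neurons and glia, -0.27 for pacemaker cells, -0.12 for fibroblasts and -0.22 for endothelium. The score is built from the muscle list, so the small median of that list was set by construction.

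Fat cell genes differed in order among the controls. All 13 tested were below control, with a median of -1.70, and 4 had an unadjusted p under 0.05. Cidec, a lipid droplet protein, gave 8.40, 16.3 and 34.9 CPM in controls and 1.43 and 4.76 CPM with C. tropicalis (log2 -2.68 ± 0.77), and Lpl, lipoprotein lipase, gave 19.4, 18.1 and 11.2 against 2.74 and 7.25 CPM. On the log2 scale control 3 was nearer to C. tropicalis than to the other controls in none of the 13. Control 1 lay between the colonized libraries in the mean log2 level of the 13. Against the control mean, that level was -1.69, 0.47 and 1.22 in controls 1 to 3 and -2.40 and -0.68 in C. tropicalis 1 and 2. The groups did not overlap in 6 of the 13, beside 16.5% of all genes tested on the lower side. The median was -2.56 without C. tropicalis 2. Tuft cell genes had a median of -0.84 with 9 of 21 below at an unadjusted p under 0.05. For Trpm5, the channel by which these cells signal, the controls gave 25.5, 18.4 and 4.14 CPM and C. tropicalis 5.60 and 4.48 CPM, so control 3 lay below both colonized libraries. Trpm5 overlaps the more abundant Tssc4 on the other strand. The tuft median was -0.40 with the Hox score as a covariate and -1.35 without control 3.

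Cell cycle genes were all on one side. Of 39 tested, 39 were above control, 14 at an unadjusted p under 0.05, and none passed the adjusted threshold by edgeR, while DESeq2 called 3. The median was 0.53, it was 0.82 within the rRNA-rich libraries, 0.81 without control 1 and 0.31 without control 3. Replication genes held 13 of the 14. Mcm3, a part of the replicative helicase, gave 43.2, 42.9 and 39.5 CPM in controls and 75.1 and 67.0 CPM with C. tropicalis (log2 0.76 ± 0.20). Ccne1, the cyclin of entry to replication, was at log2 0.95 ± 0.24, Uhrf1, which copies DNA methylation, at 0.88 ± 0.24 and Tyms, which makes thymidylate, at 0.59 ± 0.17. Mki67, the proliferation marker, gave 72.8, 39.2 and 32.5 against 85.6 and 66.1 CPM, so control 1 lay between the colonized libraries (log2 0.66 ± 0.35).

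Genes of fatty acid oxidation and of cholesterol synthesis leaned below control, while fatty acid synthesis did not. In the synthesis list 12 of 22 tested were above and 10 below, 4 and 3 of them at an unadjusted p under 0.05, with a median of 0.12. Of 31 tested genes of fatty acid oxidation and PPAR response 25 were below, with 1 above and 7 below at an unadjusted p under 0.05. Their median was -0.26, and -0.17 without C. tropicalis 1. Angptl4, an inhibitor of lipoprotein lipase, gave 4.06, 2.08 and 4.63 CPM in controls and 0.514 and 0.680 CPM with C. tropicalis (log2 -2.57 ± 0.49, groups apart), and the carnitine carrier Slc25a20 was at -0.71 ± 0.17. Of 27 cholesterol genes 18 were below, with 0 above and 5 below at an unadjusted p under 0.05. The lean of this list rested on single libraries: its median was -0.25, but -0.05 without control 2 and -0.10 without C. tropicalis 2. Insig1 was at -0.98 ± 0.22, Hmgcs1 at -0.89 ± 0.21 and Fdft1, which overlaps Ctsb, at -0.83 ± 0.19. Hypoxia and glycolysis genes, the list that holds Hif1a, had 27 of 35 above control, 4 at an unadjusted p under 0.05, and a median of 0.24, or 0.41 without control 2.

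**Figure D4:**
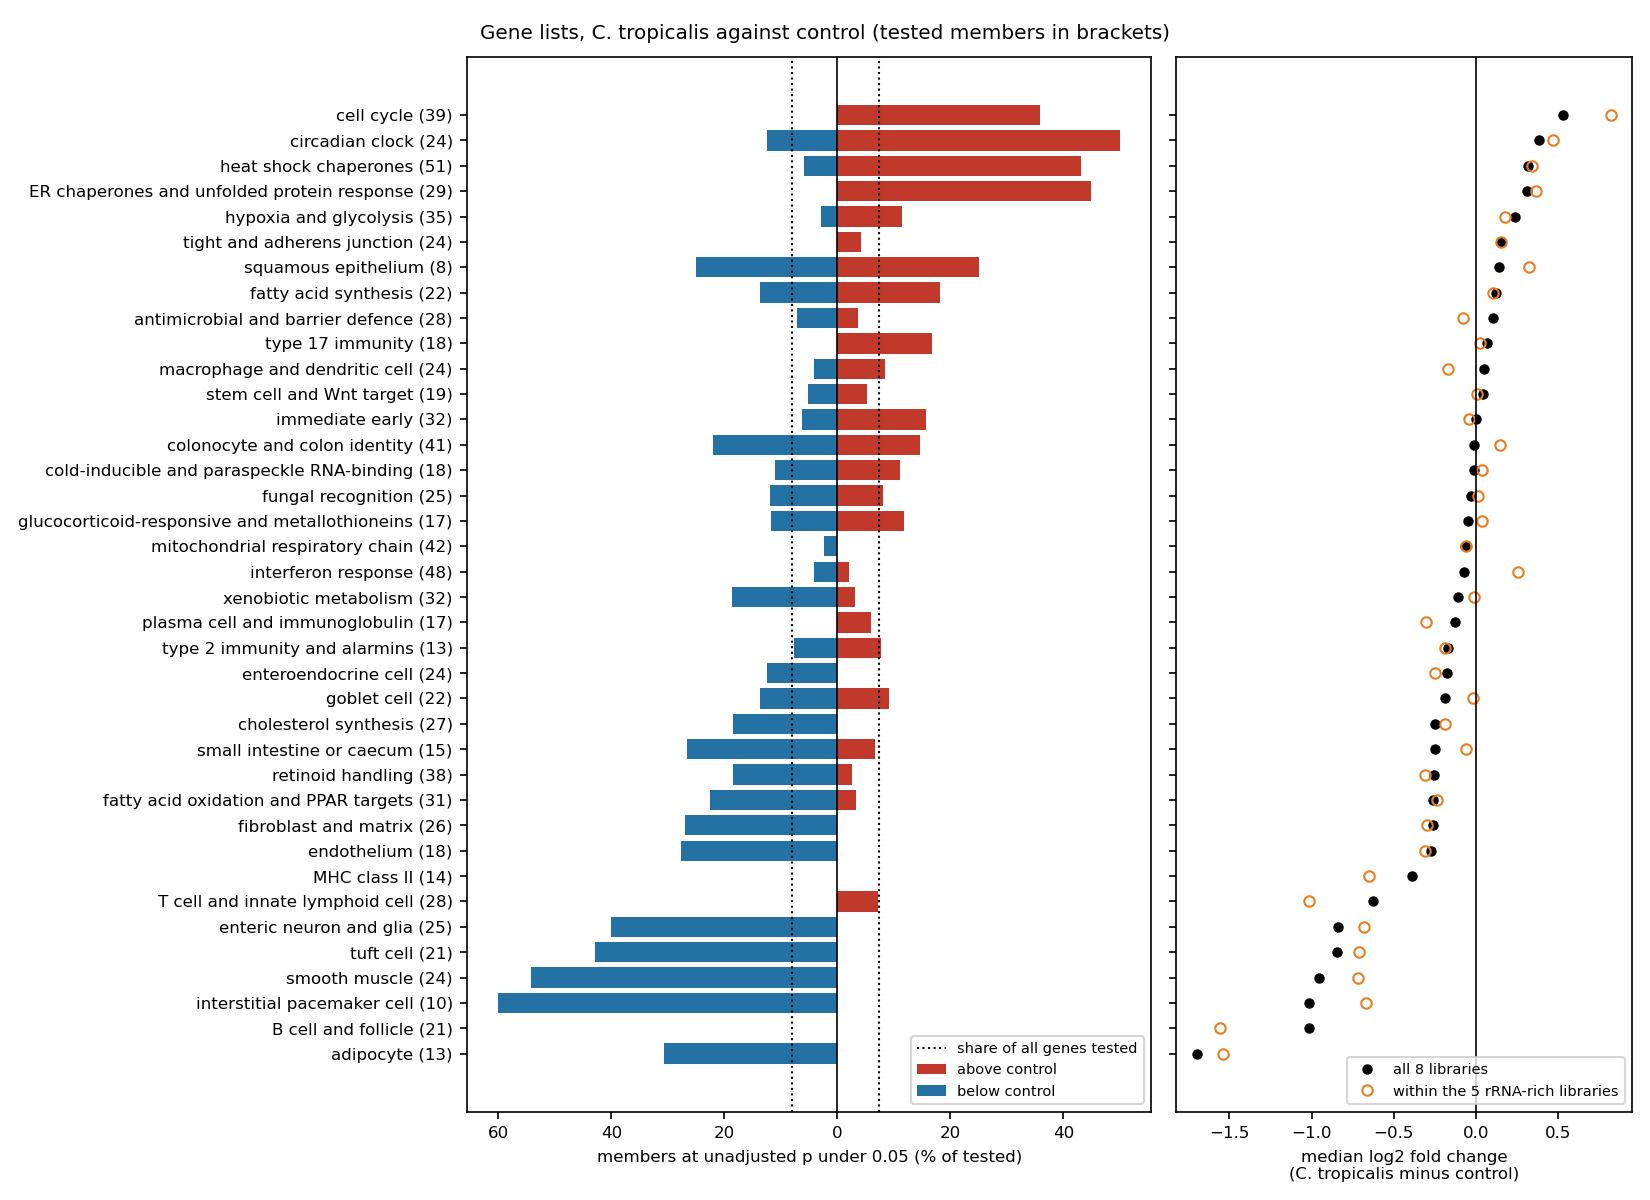
Gene lists with at least 8 tested members, ordered by median: the left panel gives the percentage of tested members at an unadjusted p under 0.05 above (right) and below (left) control, with dotted lines at the percentages over all genes tested, and the right panel the median log2 fold change over all libraries and within the rRNA-rich ones. Clock, chaperone and cell cycle lists stand on the higher side and muscle, nerve, pacemaker and tuft lists on the lower side.

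Defence genes gave few differences. Of 16 readouts of antifungal and mucosal response chosen for naming whatever their values, 12 were tested. Of these, 5 were above and 7 below control, with 0 above and 1 below at an unadjusted p under 0.05 (edgeR). Over all genes tested 7.33% were above and 8.05% below by that measure. No readout passed the adjusted threshold by edgeR or DESeq2. Il22 had no count in any library. For Il17a the controls had no count and C. tropicalis 2 had 0.0567 CPM, under the floor of 3 counts, so neither cytokine was detectable at this depth. Duox2, an epithelial oxidase, gave 65.6, 47.2 and 48.8 CPM in controls and 85.2 and 74.9 CPM with C. tropicalis (log2 0.57 ± 0.30, edgeR adjusted p = 0.381), and its partner Duoxa2 was at 1.12 ± 0.32. With C. albicans Duox2 stood at 107, 150 and 237 CPM, above both C. tropicalis libraries.

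Clec7a, which encodes dectin-1, was the single readout below control at an unadjusted p under 0.05 (edgeR). It gave 1.88, 1.61 and 2.53 against 0.914 and 1.25 CPM (log2 -0.89 ± 0.38), and Card9 was at 0.32 ± 0.55. Of 25 tested fungal recognition genes 2 were above and 3 below at an unadjusted p under 0.05. Tlr2, a receptor for microbial lipopeptides that also senses yeast, gave 21.5, 15.8 and 10.9 against 5.42 and 6.69 CPM (log2 -1.41 ± 0.29, edgeR adjusted p = 0.144). Both colonized libraries lay below all controls for Clec7a and Tlr2, as for 16.5% of all genes tested. Of the other readouts, Lcn2 was at log2 0.43 ± 0.42, Nos2 at 0.24 ± 0.50, Igha at 0.47 ± 0.56, Pigr, which carries IgA across the epithelium, at -0.12 ± 0.27, the mucin Muc2 at -0.21 ± 0.30, Ptgs2 at -0.62 ± 0.61, Il33 at -0.14 ± 0.30, Reg3g at -1.26 ± 0.87 and Retnlb at -2.80 ± 1.70. Reg3g was under 1 CPM in all 5 libraries.

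Among other immune and epithelial signals, Il4ra, the shared receptor of IL-4 and IL-13, gave 39.3, 41.3 and 39.7 CPM in controls and 23.5 and 25.3 CPM with C. tropicalis (log2 -0.72 ± 0.13, edgeR adjusted p = 0.135). Its groups did not overlap, as for 16.5% of all genes tested on the lower side. The epidermal growth factor ligand Areg was at 1.22 ± 0.42. In the list of squamous epithelium, 8 of 18 genes were tested: Krt14 was at log2 1.92 ± 0.40 from levels of 0.894 to 4.74 CPM, Sfn at 1.17 ± 0.31 and Krt17 at -3.19 ± 0.64. The list moves with no single direction, with 2 above and 2 below at an unadjusted p under 0.05.

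Levels of lymphoid genes differed widely among the controls. The 21 B cell and follicle genes summed to 59.7, 526 and 664 CPM in controls and to 178 and 241 CPM with C. tropicalis, so the colonized libraries lay between control 1 and the other controls. Over all libraries none of the 21 had an unadjusted p under 0.05 and the median was -1.02. It was -1.57 without control 1, -0.74 without control 2 and -0.26 without control 3. The rRNA-rich libraries, a setting chosen after seeing the data, leave out control 1, C. albicans 1 and C. albicans 3. Within them 10 of the 21 passed at an adjusted p under 0.05 by edgeR, all below control. Of all 16578 genes tested in that fit, 43 passed below and 20 above control. Leaving out control 1 alone gave 0 genes past the threshold. Ccr7, which guides lymphocytes to lymphoid tissue, gave 0.685, 17.3 and 10.4 against 2.34 and 2.49 CPM (log2 -2.50 ± 0.33 within the rRNA-rich libraries, edgeR adjusted p = 0.0186). The B cell receptor chain Cd79b, at 2.80, 44.9 and 37.3 against 8.39 and 14.0 CPM, and Ltb, a cytokine that organizes follicles, at 5.43, 50.8 and 42.0 against 12.2 and 16.7 CPM, passed there too. T cell genes had a median of -0.63, from -1.03 without control 1 to -0.26 without control 2, and MHC class II genes one of -0.39, from -0.66 without control 1 to -0.13 without control 3, with 2 and 0 members above and 0 below at an unadjusted p under 0.05 over all libraries.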

How the data were processed

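RNA was prepared from colon with RNeasy columns and sequenced from libraries made with a NEBNext Ultra RNA kit, per the labels' protocols. The authors deposited 1 table of raw read counts per gene for the 8 libraries; per the submitters' processing notes, build mm10 and the tools TopHat2 2.0.12, HTSeq (given as 6.1) and DESeq 1.18.0 were used. How strand and shared reads were handled is not given in those sources. Counts of identifiers matched to no symbol in GENCODE M21 made up 0.00317% of the total.

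Counts were fitted with edgeR 4.0.16 (R 4.3.3, limma 3.58.1): TMM scaling, filterByExpr, 3 groups in one quasi-likelihood model over all 8 libraries with 5 residual degrees of freedom, the contrast C. tropicalis minus control, and Benjamini-Hochberg adjustment over 16107 genes at 0.05. CPM used TMM-scaled totals. Standard errors are the log2 fold change divided by the root of F. The script was tested on simulated data. DESeq2 1.42.0, limma-voom, other scalings, filters and covariates, and leaving out each library served as alternatives. Figures were drawn with matplotlib 3.10.9.

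The comparison, the gene lists and the tests were chosen with earlier results of these data known. Genes named were those past the threshold, then the smallest p-values up to 12 in each direction among symbols of mean CPM at least 1 whose groups did not overlap, up to 4 per list by unadjusted p, and 16 readouts. Some genes are not reported here. Of the 118 tested genes given values, 91 follow that rule and 27 were chosen after their values were seen. List counts and medians are descriptions, without a test of the list. Genes named by rank below the threshold, by the smallest p of a list or after their values were seen were picked with their separation known. Groups lying apart in them is therefore no finding. The table holds 5 libraries of this comparison, so precision is set by 2 colonized libraries. Deviations of same-numbered control and C. tropicalis libraries correlated at -0.0188 and 0.0290, which cannot decide whether the numbers pair samples. No 2 libraries of a group agreed within sampling noise (chi-square per degree of freedom at least 21.0).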

Additional observations from a re-analysis of the deposited data

How the results depend on the processing

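The count of 5 genes past the threshold was 5 with DESeq2 size factors, upper-quartile factors or a stricter filter and 4 with limma-voom. It was 396 with the DESeq2 test, 71 with no filter on low counts, 10 at a threshold of 0.1, 1 when a fold of 1.5 was asked for, 0 with only the 2 groups in the fit and 0 when the muscle score entered as a covariate. Leaving out 1 library gave 0 to 192 genes, with 192 without control 3. With the replicate number as a block 0 genes passed for both comparisons, and the labels do not say that the numbers pair samples. Deviations from group means correlated at -0.0188 and 0.0290 between same-numbered control and C. tropicalis libraries. For C. tropicalis and C. albicans the values were 0.156 and 0.147, and for control and C. albicans -0.392, -0.0796 and -0.128. The deviations of the 2 C. tropicalis libraries mirror each other, so these values cannot decide whether the numbers pair samples. Of the settings chosen after seeing the data, the rRNA class as a term and the posterior Hox score as a covariate gave 0 and the rRNA-rich libraries 63. C. tropicalis against C. albicans, at 0 genes, gave 1739 with DESeq2, 1127 with no filter and 0 to 1315 when 1 library was left out (925 without control 1, 897 without control 3 and 1315 without C. albicans 1, otherwise 0). The cause of these shifts was not tested.

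The called genes changed direction under none of the settings run. Some other named genes did. Under the muscle score, log2 fold changes turned to 0.0929 (Dbp), -1.05 (Fmo4), -0.0635 (Fmo5), -0.39 (Hoxd13), -0.51 (Hoxb13), 0.27 (Reg3g), -0.38 (Nos2), 0.43 (Muc2), 1.33 (Retnlb), -0.56 (Card9), -0.37 (Igha) and 0.83 (Ptgs2). With the Hox score, of which Hoxb13 is itself a part, they turned to 0.12 (Dbp), -0.56 (Fmo4), -0.22 (Hoxb13), -0.25 (Nos2), 0.33 (Muc2), -0.36 (Card9), -0.0801 (Igha) and 0.56 (Ptgs2). Within the rRNA-rich libraries they turned to -0.14 (Fmo4), -0.0796 (Nos2), 0.13 (Muc2) and 0.0630 (Ptgs2). Fmo4 was at -0.0526 with upper-quartile factors and -0.0113 with the block. Leaving out 1 library gave ranges across 0 of -0.51 to 0.26 (Dbp), -0.16 to 0.32 (Fmo4), -0.10 to 0.65 (Nos2), -0.40 to 0.11 (Muc2), -0.27 to 0.11 (Pigr), -0.0573 to 0.86 (Igha) and -0.92 to 0.0488 (Ptgs2). Depth is not the limit for most named genes, but Il17a, Il22 and Reg3g lie near the floor of 3 counts.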
